A study of Mus musculus with 6 samples.

Results

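The genes described here are the translation initiation and elongation factors of mouse myeloid-derived suppressor cells (MDSCs), immature myeloid cells known for restraining T cells. Members were the protein-coding genes whose symbol begins with Eif and a digit from 1 to 6, or with Eef and 1 or 2, with the Eif2ak kinases and pseudogenes left out and at least 30 reads summed over the 6 libraries. This rule took 60 of the 55359 genes in the count table, of which 12068 reached 30 reads. Another 4 symbols matched but fell short of 30 reads: Eif4e1b had 0 reads, Eef1akmt3 had 2, Eif4ebp3 had 12 and Eif3j2 had 22. The rule also finds enzymes and inhibitors named after a factor, such as Eef2k and Eif4ebp1, so the group is a family of names and not only of factors.

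The cells were grown from C57BL/6 bone marrow for 4 days with GM-CSF and IL-6, both at 40 ng/ml, and their polymorphonuclear fraction was isolated with a commercial kit. They were then plated again and kept for 12 h, either as blank or after transfection, using Lipofectamine 2000, of mitochondrial DNA (mtDNA, 250 ng/ml), with 3 libraries in each group. The comparison asks how the transcripts of cells given mtDNA differ from those of blank cells. Whether the reagent was also added to blank cells is not stated, no group received another DNA, and nothing states that the 3 libraries of a group came from separate cultures or mice, so the p-values cover only spread among the sequenced libraries, possibly technical. Library totals ran from 4018360 to 4911103 reads, and 3 reads corresponded to 0.611 to 0.747 CPM (reads scaled to library size) in a single library. CPM values below are scaled by edgeR's TMM factors, SD is over n = 3 libraries, and fold changes are log2, mtDNA minus blank, with their standard error (SE).

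Translation begins when the initiator tRNA, carried by eIF2, joins the small ribosomal subunit with eIF1, eIF1A, eIF5 and the large eIF3 complex. The mRNA is brought in by eIF4F, made of the cap-binding eIF4E, the scaffold eIF4G and the helicase eIF4A, and 4E-binding proteins block this step by covering eIF4E. The elongation factor eEF1A then delivers aminoacyl-tRNAs and eEF2 moves the ribosome along. In infected or interferon-treated cells initiation is classically controlled through phosphorylation of eIF2 by kinases such as PKR, the product of Eif2ak2, a step that RNA levels do not report.

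Interferon genes rose by large folds after mtDNA, while the changes of the translation factors were small. Ifnb1, which encodes interferon beta, had 0 CPM in all 3 blank libraries and 3.32, 2.78 and 2.33 CPM in the mtDNA libraries (edgeR adjusted p = 1.64e-05). The antiviral gene Rsad2 had 15.8, 4.01 and 11.7 CPM in blank 1, 2 and 3 and 763, 586 and 621 CPM in mtDNA 1, 2 and 3 (edgeR adjusted p = 2.13e-16). Among the translation factors, 59 of the 60 passed edgeR's filter on low counts, and the exception was Eef1a2, with 31 reads in all. By edgeR's quasi-likelihood test at an adjusted p under 0.05, 8 of the 59 were lower in mtDNA and 0 were higher: Eif4b, Eef1g, Eif4g1, Eef2k, Eef2, Eif4ebp2, Eif3b and Eif4ebp1. That is 13.6% lower, where 5.98% of all 11190 tested genes were called lower and 11.9% higher. No factor changed 2-fold, and the fold changes ran from -0.49 for Eef2k to 0.30 for Eif5a2, which did not pass the test.

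**Figure D1:**
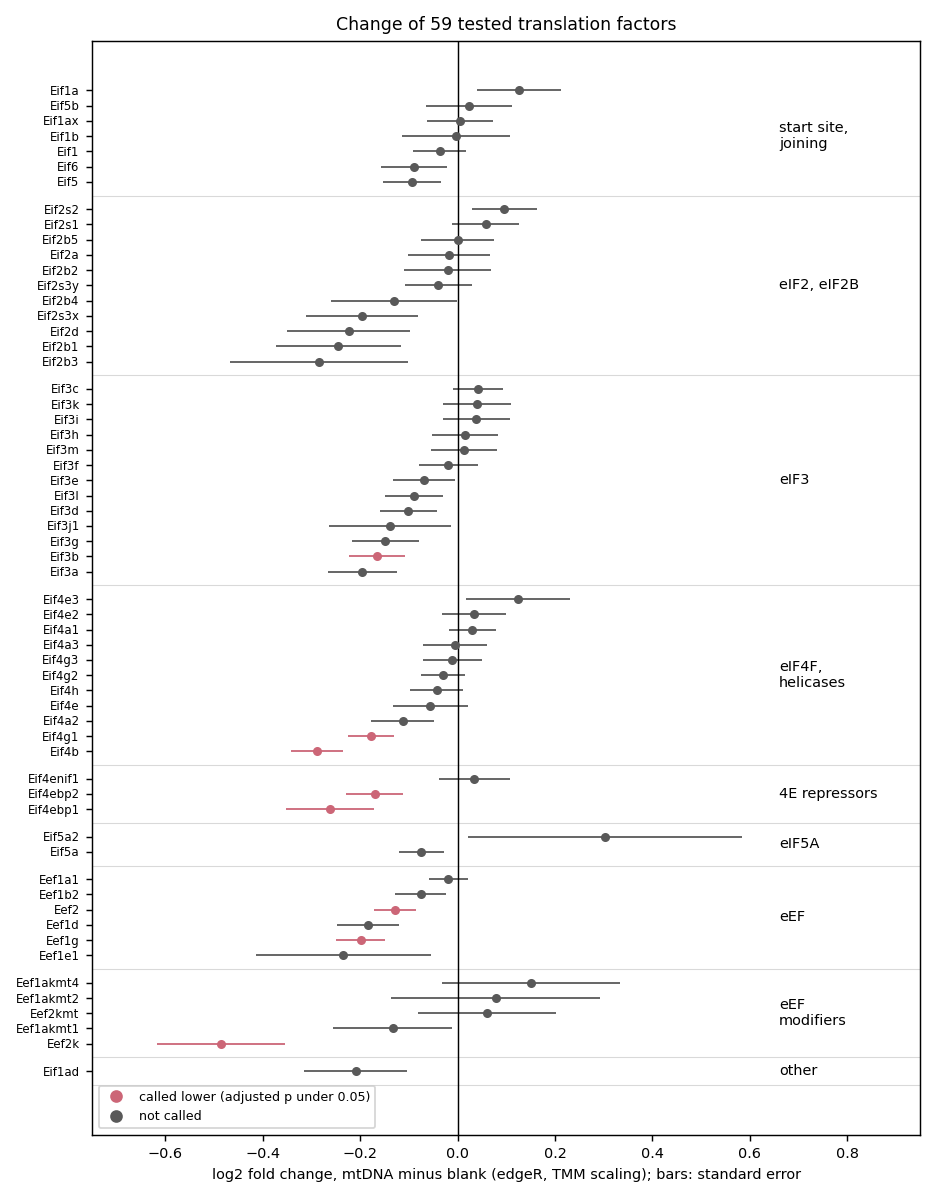
Log2 fold change (x axis, mtDNA minus blank) of the 59 tested translation factors, grouped by role, as points with the standard error as bars. The 8 factors called lower are in red, and no point lies beyond -0.49 or 0.30.

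The median fold change of the 59 factors was -0.04, against -0.01 for all tested genes, and 41 of 59 (69.5%) lay below 0, against 52.0% of all tested genes. The factors are abundant, with a median of 93.2 CPM against 32.9 CPM for all tested genes, and small changes are easier to call in abundant genes. Among genes with a mean of at least 20 CPM, a bound chosen after seeing the data, 8 of 51 factors (15.7%) were called lower. Of all 7087 such genes, 7.31% were called lower and 16.2% higher. This bound does not match these genes to the factors in abundance, so the part of abundance in the calls was not tested. With library totals in place of TMM factors the median of all tested genes moved to -0.13, 27 factors were called lower and 0 higher, and the calls over all genes were 861 higher and 2356 lower in place of 1327 and 669. With upper-quartile factors 16 factors were called lower and 0 higher, and all genes split into 970 higher and 1504 lower. Directions below are relative to the TMM scale.

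In 16 of the 59 factors (27.1%) every mtDNA library lay below every blank library, against 15.6% of all tested genes. In 1 factor (1.69%), Eif2s2, every mtDNA library lay above, against 17.9% of all tested genes. At an unadjusted edgeR p under 0.05, 11 factors were lower and 0 higher. All tested genes were not counted at that level, so such counts, here and below, have no background share to be read against. DESeq2 called 3 lower (Eif4b, Eef1g and Eif4g1) and 0 higher, where it called 1.94% of the tested genes lower and 8.64% higher. By limma-voom 8 were called lower and 0 higher, where it called 657 of the 11190 tested genes lower and 1324 higher.

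The factors together made up 1.45%, 1.49% and 1.48% of all reads in the blank libraries and 1.28%, 1.32% and 1.29% in the mtDNA libraries. These shares did not overlap, but they include the rise of other genes in the total. On the TMM scale the 60 factors summed to 14198 ± 149 CPM in blank and 13572 ± 141 CPM in mtDNA, a ratio of 0.956, and the ratio was 0.880 on library totals. In bulk RNA, less RNA per cell and fewer cells of a type that carries much of it cannot be told apart.

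Levels per length spread widely within the family. On the scale of CPM per kilobase of annotated exons, Eef1a1, the main carrier of aminoacyl-tRNA, stood first in blank at 1310 ± 20.5, followed by Eef2 at 634 ± 12.0, Eif5a at 275 ± 8.42, Eif4a1 at 184 ± 2.71, Eif1 at 139 ± 7.56, Eef1b2 at 128 ± 3.70, Eif3h at 120 ± 11.03 and Eef1g at 110 ± 1.94. The first 4 were apart by more than their spread, while Eif1, Eef1b2, Eif3h and Eef1g followed at intervals comparable with theirs. Those 8 held the same ranks in the mtDNA libraries, and 59 of the 60 factors kept their rank to within 3 places. Eef1a1 and Eef2 alone held 37.7% to 38.3% of the family's reads in each library. At the other end stood the tissue-restricted forms, Eif5a2 at 0.911 and Eef1a2, the muscle and neuron form of eEF1A, at 0.472. The 13 subunits of eIF3 ranged from 3.67 (Eif3j1) to 120 (Eif3h). Reads common to several genes may be uncounted, which can lower a level and which the SD over libraries does not cover. Of the 75-base windows, 41.7% in Eef1a1, 27.7% in Eif4a1, 25.6% in Eif1 and 16.7% in Eif3h also occur in other genes. These shares were 56.5% in Eef1g and 51.0% in Eif3j1, against 2.59% in Eef2, 3.60% in Eif5a and 2.95% in Eef1b2.

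**Figure D2:**
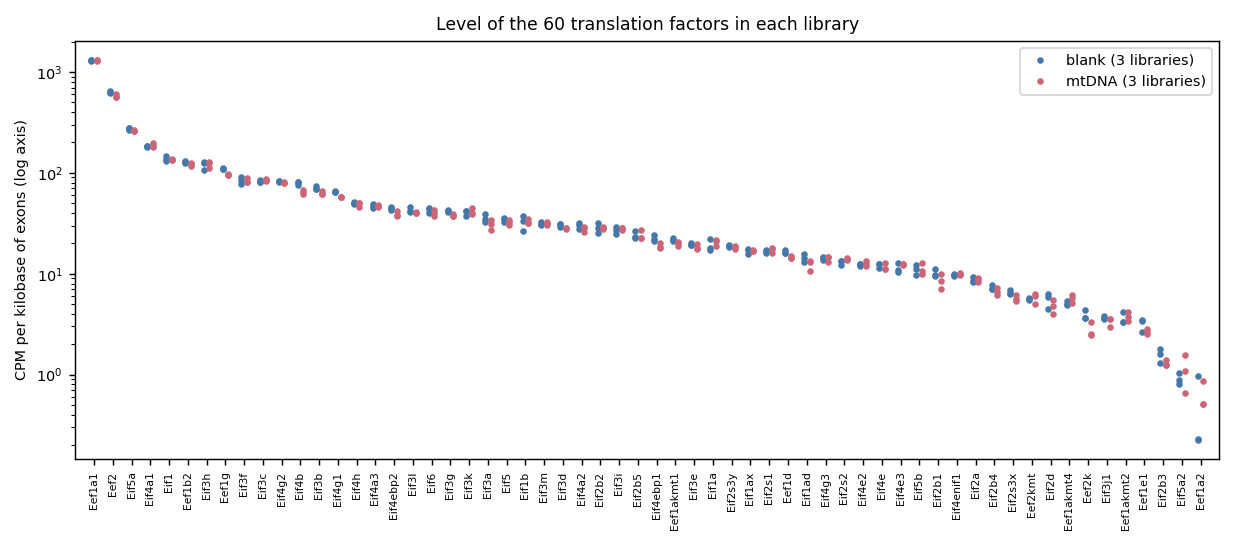
Level of each of the 60 translation factors in CPM per kilobase of exons (y axis, log scale) in the 3 blank (blue) and 3 mtDNA (red) libraries, ordered by the blank mean. The order runs from Eef1a1 at 1310 to Eef1a2 at 0.472, and the groups nearly coincide for most genes.

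The promoters of the factors show which upstream letters the called genes carry beside an interferon-responsive gene of the same pathway. Sequences of 300 bases (250 before and 50 after the start) came from a RefSeq table on GRCm38.p6, which held 48 of the 60 factors and 6 of the 8 called lower. The sequences of Eif3b and Eif4ebp2, which hold no E-box (CACGTG), are left out, so all 3 called genes with an E-box are among those printed. Shown are those of Eif4g1, Eef2, Eef2k (the first of its 3 starts) and Eif4b, and that of Eif2ak2, the PKR gene, because it rose. They are printed 5′ to 3′ on the gene's strand: Eif4g1 at chr16:20672477-20672776 (plus strand), Eef2 at chr10:81176381-81176680 (plus), Eef2k at chr7:120842581-120842880 (plus), Eif4b at chr15:102073523-102073822 (plus) and Eif2ak2 at chr17:78882523-78882822 (minus). Capitals mark the E-box CACGTG in the first 3, a terminal oligopyrimidine (TOP) start in Eif4g1 (its run of 6 pyrimidines), and overlapping matches of the interferon-stimulated response element core GAAANNGAA in Eif2ak2. Eif4b held none of the motifs searched.
Eif4g1: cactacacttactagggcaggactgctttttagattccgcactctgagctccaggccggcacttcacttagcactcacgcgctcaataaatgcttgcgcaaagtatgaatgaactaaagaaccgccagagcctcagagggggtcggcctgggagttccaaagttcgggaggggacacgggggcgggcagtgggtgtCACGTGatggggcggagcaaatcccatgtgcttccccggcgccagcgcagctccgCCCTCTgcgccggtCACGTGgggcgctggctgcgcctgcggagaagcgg
Eef2: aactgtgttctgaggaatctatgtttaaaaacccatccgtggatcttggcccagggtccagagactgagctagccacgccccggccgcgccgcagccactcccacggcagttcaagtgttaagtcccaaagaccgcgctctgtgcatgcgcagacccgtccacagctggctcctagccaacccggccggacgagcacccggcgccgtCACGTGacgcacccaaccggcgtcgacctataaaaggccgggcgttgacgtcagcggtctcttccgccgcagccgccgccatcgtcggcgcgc
Eef2k: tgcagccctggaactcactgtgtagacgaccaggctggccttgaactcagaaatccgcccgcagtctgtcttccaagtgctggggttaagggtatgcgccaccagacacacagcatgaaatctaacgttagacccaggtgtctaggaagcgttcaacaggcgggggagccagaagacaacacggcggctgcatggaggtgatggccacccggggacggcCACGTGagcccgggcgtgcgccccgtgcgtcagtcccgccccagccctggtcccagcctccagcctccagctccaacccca
Eif4b: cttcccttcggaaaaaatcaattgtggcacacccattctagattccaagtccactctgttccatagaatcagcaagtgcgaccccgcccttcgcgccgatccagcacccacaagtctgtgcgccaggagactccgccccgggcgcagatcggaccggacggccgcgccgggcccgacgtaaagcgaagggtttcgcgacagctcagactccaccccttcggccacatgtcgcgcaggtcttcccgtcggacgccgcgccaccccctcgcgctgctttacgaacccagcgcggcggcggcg
Eif2ak2: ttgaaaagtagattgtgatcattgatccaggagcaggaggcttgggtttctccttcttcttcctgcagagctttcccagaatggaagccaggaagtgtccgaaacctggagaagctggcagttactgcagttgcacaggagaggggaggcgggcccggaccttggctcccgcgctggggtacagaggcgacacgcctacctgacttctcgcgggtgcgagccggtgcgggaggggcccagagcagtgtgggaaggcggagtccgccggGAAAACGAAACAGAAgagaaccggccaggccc

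Searched on both strands, the interferon core GAAANNGAA was found in 4 of the 48 factor genes (8.33%), against 9.76% of the 27025 genes in the table, and in 0 of the 6 called lower. The E-box CACGTG, a site that factors of the MYC and TFE families can bind, was found in 13 of 48 (27.1%) against 8.09% of all genes, and in 3 of the 6 called lower: Eef2, Eef2k and Eif4g1, with 2 copies in Eif4g1. The ETS motif CCGGAAG was in 16 of 48 (33.3%) against 9.93%, and in 1 of the 6 called lower, Eif4ebp2. The amino acid response core TGATGNAA was in 2 of 48 (4.17%) against 4.51%, and in 1 of the 6 called lower, at another start of Eef2k than the one shown. A TOP start, a C followed by at least 4 pyrimidines within 2 bases of the annotated start on the gene's strand, was found in 9 of 48 (18.8%) against 10.6%, among them Eef1a1 and 2 of the 6 called lower, Eif3b and Eif4g1. The same search found it in only 21 of 60 genes of cytosolic ribosomal proteins (35.0%). It misses a TOP start that lies more than 2 bases from the annotated start, so a gene without a match may still have one. The factors' promoters had a median GC content of 62.2% against 52.7% for all promoters, and genes with several starts had more chances to hold a match. These matches describe letters only and were not tested.

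Among the genes that bring the capped mRNA to the ribosome, Eif4b and Eif4g1 fell. Eif4b, which encodes a helper of the eIF4A helicase, had 363, 364 and 335 CPM in blank 1, 2 and 3 and 279, 300 and 291 CPM in mtDNA 1, 2 and 3. All 3 mtDNA libraries lay below all blank libraries, from 354 ± 16.4 to 290 ± 10.9 CPM, a fold change of -0.29 (SE 0.054, edgeR adjusted p = 0.000406). Eif4g1, the main scaffold of eIF4F, had 474, 470 and 485 CPM in blank and 418, 420 and 425 CPM in mtDNA. Again the groups did not overlap, and its fold change was -0.18 (SE 0.047, edgeR adjusted p = 0.0102). Its call was lost without blank 3 (edgeR adjusted p = 0.0545).

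The partners of Eif4b and Eif4g1 in eIF4F were not called. Eif4e, the cap-binding subunit, had 75.8, 74.7 and 68.0 CPM in blank and 76.7, 67.0 and 67.5 CPM in mtDNA, with overlapping groups and a fold change of -0.06 (SE 0.077, edgeR adjusted p = 0.682). Eif4a1, the more abundant helicase gene, had 784, 797 and 808 CPM in blank and 855, 805 and 781 CPM in mtDNA (fold change 0.03, SE 0.047, edgeR adjusted p = 0.722). Of its 75-base windows 27.7% also occur in other genes, so part of its reads may be uncounted. Eif4a2, its close relative, had 171, 148 and 163 CPM in blank and 140, 154 and 151 CPM in mtDNA, also overlapping (fold change -0.11, SE 0.064, edgeR adjusted p = 0.257). Its fold change was -0.06 without blank 1 and -0.17 without blank 2. Of the 11 genes of eIF4F and the helicases, 2 were called lower (18.2%, against 5.98% of all tested genes) and 0 higher (against 11.9%). Of the same 11, 8 (72.7%) had a fold change below 0, against 52.0% of all tested genes.

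Of the 3 tested repressors of cap binding, 2 were called lower (66.7%, against 5.98% of all tested genes). Eif4ebp2 had 263, 258 and 245 CPM in blank and 215, 243 and 222 CPM in mtDNA, so its highest mtDNA library came just under its lowest blank library. Its fold change was -0.17 (SE 0.058, edgeR adjusted p = 0.0444). Eif4ebp1 had 46.6, 52.7 and 48.9 CPM in blank and 39.1, 44.3 and 40.2 CPM in mtDNA, a fold change of -0.26 (SE 0.090, edgeR adjusted p = 0.0472). The third repressor gene, Eif4enif1, which encodes a shuttle that takes eIF4E into the nucleus, was at 61.9 ± 1.27 CPM in blank and 63.5 ± 1.91 CPM in mtDNA and was not called. Both calls of the 4E-binding proteins were lost with DESeq2 (adjusted p = 0.121 for Eif4ebp2 and 0.221 for Eif4ebp1). That of Eif4ebp2 was lost with the GC correction (0.0635) and that of Eif4ebp1 without a filter on low counts (0.0565). They were also lost in 5 of the 6 omissions of a single library for Eif4ebp2 (without blank 1, 2 or 3 or mtDNA 1 or 3, edgeR adjusted p = 0.137, 0.0994, 0.0565, 0.139 and 0.137) and in 4 of 6 for Eif4ebp1 (without blank 2 or 3 or mtDNA 1 or 3, 0.191, 0.0933, 0.134 and 0.13).

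Eef1g and Eef2 fell among the elongation factors, while Eef1a1, the most abundant, was not called. All 6 tested genes of the eEF1 and eEF2 group had fold changes below 0, against 52.0% of all tested genes. Their median was -0.16, and 2 of the 6 were called lower (33.3%, against 5.98% of all tested genes). The group goes by name and includes Eef1e1, which had its lowest fold change (-0.23) and was not called. Eef1g, the gamma subunit of the complex that recharges eEF1A with GTP, had 284, 292 and 282 CPM in blank and 249, 252 and 247 CPM in mtDNA. The gap between the groups was several times the spread within them, with 286 ± 5.04 CPM in blank and 249 ± 2.65 CPM in mtDNA, and its fold change was -0.20 (SE 0.051, edgeR adjusted p = 0.00803). Of its windows 56.5% are shared with other genes, mostly processed copies, so its level is uncertain. Eef1d, the delta subunit of the same complex, had 104, 112 and 105 CPM in blank and 92.2, 97.0 and 93.3 CPM in mtDNA, without overlap, but missed the threshold (fold change -0.18, SE 0.064, edgeR adjusted p = 0.0514). It was picked for mention after its values were seen, as the other subunit of that complex with non-overlapping groups.

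Eef2, the translocase, had 2078, 2154 and 2095 CPM in blank and 1891, 2008 and 1887 CPM in mtDNA. The groups did not overlap, and its fold change was -0.13 (SE 0.043, edgeR adjusted p = 0.0432). This call sat at the threshold: it was lost in 5 of the 6 omissions of a library (without blank 1, 2 or 3 or mtDNA 1 or 3, edgeR adjusted p = 0.0689, 0.14, 0.0957, 0.0649 and 0.15), with DESeq2 (adjusted p = 0.0704), with median-ratio factors (0.0501), with a filter of 1 CPM in all libraries (0.0509), and with a correction for GC content, where its fold change was -0.08 (edgeR adjusted p = 0.247). Eef1a1 had 3207, 3293 and 3298 CPM in blank and 3251, 3241 and 3180 CPM in mtDNA, with overlapping groups (fold change -0.02, SE 0.040, edgeR adjusted p = 0.805). It shares 41.7% of its windows with other genes, 13 of them pseudogenes.

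Eef2k encodes the kinase that phosphorylates and slows eEF2, and it had the largest fold change among the called factors. It had 26.8, 32.5 and 27.0 CPM in blank and 18.1, 24.8 and 18.6 CPM in mtDNA. The highest mtDNA library, mtDNA 2, lay just under the lowest blank library. The fold change was -0.49 (SE 0.13, edgeR adjusted p = 0.0126), and DESeq2 gave an adjusted p of 0.0574. The call was lost without blank 2 (edgeR adjusted p = 0.0869), mtDNA 1 (0.0576) or mtDNA 3 (0.0624). The other 4 modifier genes, which encode methyltransferases of eEF1A and eEF2, were not called, with fold changes from -0.13 (Eef1akmt1) to 0.15 (Eef1akmt4).

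**Figure D3:**
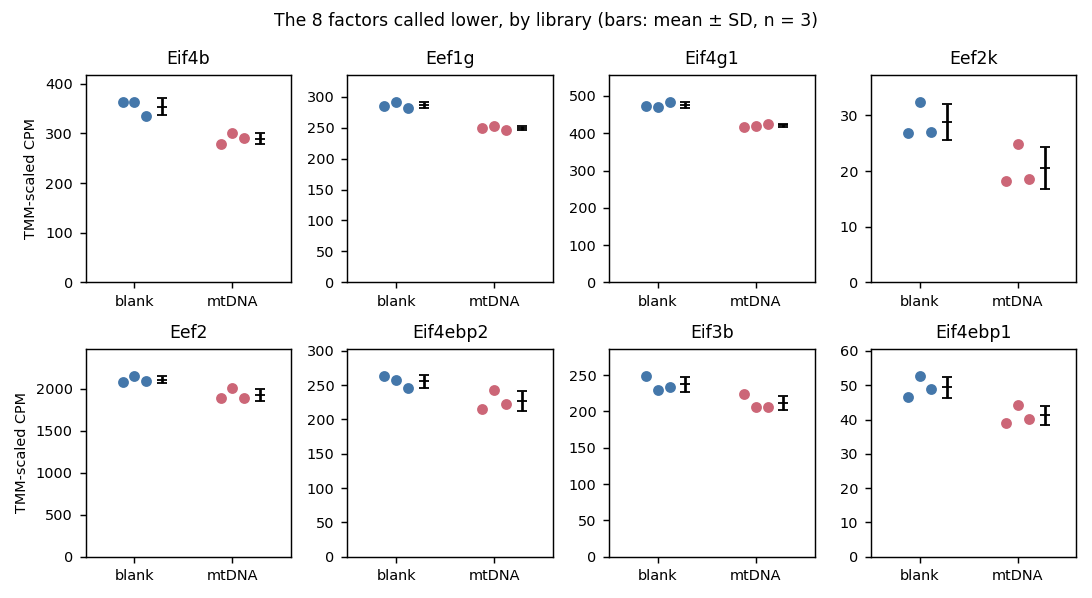
TMM-scaled CPM (y axis, from 0) of the 8 translation factors called lower in each of the 3 blank (blue) and 3 mtDNA (red) libraries, with the mean and SD in black. In each panel every mtDNA library lies below every blank library, by the widest margin relative to spread in Eef1g and Eif4g1.

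Of the 13 tested genes of eIF3, 1 was called lower (7.69%, against 5.98% of all tested genes) and 0 higher (against 11.9%). Of the same 13, 8 (61.5%) had a fold change below 0, against 52.0% of all tested genes. Eif3b, a core scaffold subunit, had 249, 230 and 233 CPM in blank and 223, 206 and 206 CPM in mtDNA (fold change -0.17, SE 0.057, edgeR adjusted p = 0.0467). The groups did not overlap, but the margin was narrow, and the call was lost with DESeq2 (adjusted p = 0.146), with median-ratio factors (0.0509), with the GC correction (0.151) and without blank 1, blank 3, mtDNA 2 or mtDNA 3 (edgeR adjusted p = 0.182, 0.0895, 0.162 and 0.156). Eif3a, the largest subunit, had a larger fold change on noisier counts, with 303, 283 and 339 CPM in blank and 238, 272 and 295 CPM in mtDNA (fold change -0.20, SE 0.071, edgeR adjusted p = 0.0631). It overlapped between groups and passed the threshold without blank 2 (0.0195) or without mtDNA 3 (0.0149). It also passed with upper-quartile factors, library totals, no filter, the GC correction and a block of neighbouring title numbers. With DESeq2 it did not pass (adjusted p = 0.125). Its fold change was -0.12 without blank 3 (0.342) and also without mtDNA 1 (0.26). Eif3j1, encoding a loosely bound subunit, shares 51.0% of its windows with other genes, Eif3j2 being a near copy, and was at 21.4 ± 0.563 CPM in blank and 19.6 ± 2.09 CPM in mtDNA (not called, fold change -0.14, and -0.05 without mtDNA 3).

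The genes of eIF2, which carries the initiator tRNA, and of eIF2B, which recharges eIF2 with GTP, gave no call. This role was given 11 genes, among them Eif2a and Eif2d, which are not subunits of eIF2 or eIF2B. Of the 11, 0 were called in either direction by edgeR, DESeq2 or limma-voom. At an unadjusted p under 0.05 there were also 0, and 9 had fold changes below 0. Eif2s1, which encodes the subunit that eIF2 kinases phosphorylate, had 80.3, 85.6 and 80.5 CPM in blank and 79.98, 89.1 and 87.0 CPM in mtDNA (fold change 0.06, SE 0.069, edgeR adjusted p = 0.635). Eif2b5, the catalytic subunit of eIF2B, had 58.6, 68.3 and 59.9 CPM in blank and 70.8, 58.5 and 59.3 CPM in mtDNA (fold change 0.00, SE 0.075). The smallest p of the group belonged to Eif2b1, a regulatory subunit, at 26.1 ± 2.24 CPM in blank and 22.0 ± 3.54 CPM in mtDNA (fold change -0.25, SE 0.13, edgeR adjusted p = 0.213). Its fold change was -0.38 without mtDNA 2 (0.0801) and -0.12 without mtDNA 3 (0.609). Eif2s2, the beta subunit and the only factor with every mtDNA library above every blank library, had 91.1, 91.2 and 82.6 CPM in blank and 95.6, 91.5 and 96.5 CPM in mtDNA (fold change 0.10, SE 0.067, edgeR adjusted p = 0.372). It was picked for mention after its values were seen.

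Start site selection and subunit joining likewise gave 0 calls among 7 genes, with 0 at an unadjusted p under 0.05 and 0 by DESeq2 or limma-voom. Eif1, a guardian of start codon choice, was at 291 ± 15.9 CPM in blank and 284 ± 4.40 CPM in mtDNA. Eif5, which promotes GTP hydrolysis on eIF2 and had the smallest p of this group, was at 235 ± 13.7 and 220.0 ± 12.3 CPM (fold change -0.09, SE 0.059, edgeR adjusted p = 0.314). Eif6, which keeps the large subunit from joining too early, was at 115 ± 6.02 and 109 ± 7.93 CPM (fold change -0.09, SE 0.068, edgeR adjusted p = 0.416). Eif5a, needed to elongate through stretches such as proline runs, had 631, 668 and 664 CPM in blank and 630, 619 and 616 CPM in mtDNA. Its groups did not overlap, by a margin of about 1 CPM, and it was not called (fold change -0.07, SE 0.046, edgeR adjusted p = 0.306). Eif1ad, a gene named for its likeness to eIF1A, was at 40.0 ± 3.39 and 34.5 ± 4.14 CPM (fold change -0.21, edgeR adjusted p = 0.196), and its fold change was -0.11 without mtDNA 2.

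Ratios of related genes within a library do not depend on the scaling between libraries. Of 11 pairs compared, 3 had no overlap between the groups, each at the smallest p that an exact two-sided permutation test of 3 against 3 libraries can give (p = 0.1, 0.367 after Benjamini-Hochberg adjustment over the 11 pairs), so none could pass 0.05. The ratio of Eif4g1 reads to those of Eif4g2, a relative that does not bind eIF4E, was 0.560, 0.576 and 0.577 in blank and 0.514, 0.505 and 0.527 in mtDNA, a log2 difference of -0.15. The ratio of Eif4g1 to Eif4g3, the other full-length scaffold, was 2.97, 3.13 and 2.97 in blank and 2.87, 2.59 and 2.65 in mtDNA, a log2 difference of -0.16. Both ratios share the numerator, so they are not independent. The X-linked Eif2s3x and its Y-linked copy Eif2s3y encode the gamma subunit of eIF2, and their ratio was 0.308, 0.308 and 0.344 in blank and 0.292, 0.264 and 0.303 in mtDNA. Eif2s3x alone was at 25.0 ± 1.14 and 21.8 ± 1.39 CPM, Eif2s3y at 78.3 ± 1.95 and 76.1 ± 2.19 CPM, and neither was called. Since 35.7% of the windows of Eif2s3x occur in other genes, reads common to such copies may be uncounted. In the other 8 pairs the groups overlapped, for instance Eif4ebp1 to Eif4ebp2 at 0.177, 0.204 and 0.200 in blank and 0.182, 0.182 and 0.181 in mtDNA (exact permutation p = 0.4). The pair Eif3j1 and Eif3j2 was not compared because Eif3j2 lay under the read minimum.

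**Figure D4:**
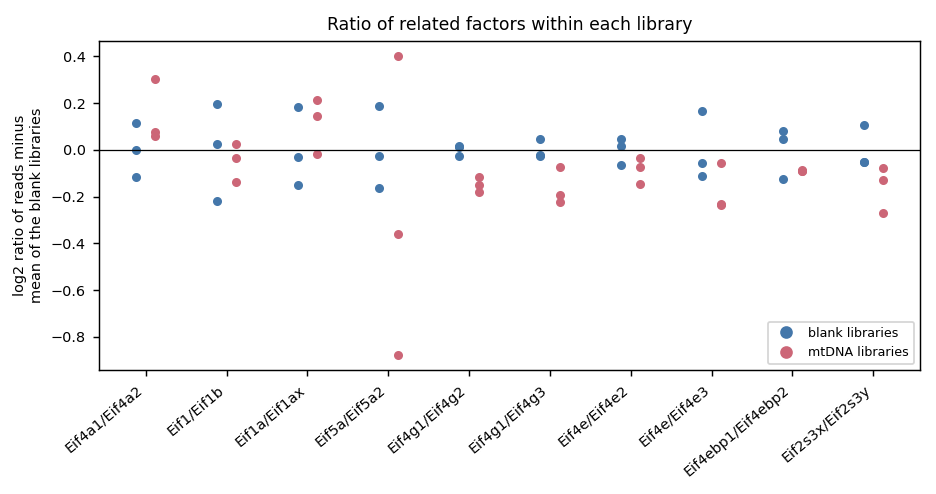
Log2 ratio of the reads of related factors within each library, minus the mean of the blank libraries (y axis), for 10 of the 11 pairs (Eef1a1/Eef1a2, with 31 reads for Eef1a2, is left out). The red mtDNA points lie below all blue blank points for Eif4g1/Eif4g2, Eif4g1/Eif4g3 and Eif2s3x/Eif2s3y.

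Regulators that act on these factors were called in both directions. Of all tested genes 11.9% were called higher and 5.98% lower, so a short list can hold calls in both directions. Of the 10 genes in the list of eIF2 kinases and phosphatase arms, 3 (30%) were called higher and 1 (10%) lower. Eif2ak2 had 66.6, 39.5 and 63.7 CPM in blank and 175, 188 and 201 CPM in mtDNA, with no overlap and a 3.37-fold rise (log2 1.75, SE 0.11, edgeR adjusted p = 3.68e-11). Blank 2 was the lowest library for Eif2ak2, as it was for Rsad2. Ddit3, the stress factor CHOP that acts downstream of phosphorylated eIF2, rose from 14.98 ± 3.07 to 21.7 ± 1.96 CPM (fold change 0.54, SE 0.15, edgeR adjusted p = 0.0132). Ppp1r15b, the constitutive partner of the phosphatase that restores eIF2, rose from 192 ± 9.29 to 221 ± 5.52 CPM (fold change 0.20, edgeR adjusted p = 0.0155). Gcn1, which activates the kinase GCN2, fell from 147 ± 8.75 to 122 ± 4.07 CPM (fold change -0.26, edgeR adjusted p = 0.00474). Atf4, whose protein is controlled by translation, was at 190 ± 7.47 and 207 ± 13.4 CPM and was not called (edgeR adjusted p = 0.173). The call of Ddit3 was lost without blank 2 (edgeR adjusted p = 0.0913) or mtDNA 1 (0.0527) and with DESeq2 (0.0675). That of Ppp1r15b was lost without blank 2 (0.0693), blank 3 (0.0717) or mtDNA 3 (0.0545), with DESeq2 (0.0539) and with upper-quartile factors, where its fold change was 0.12 (0.119), or library totals, where it was 0.08 (0.291).

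In the list of mTORC1 and MNK signalling, 1 of 16 genes was called higher and 1 lower. That is 6.25% in each direction, against 11.9% higher and 5.98% lower over all tested genes. Larp1, which binds the caps of TOP mRNAs, had 196, 187 and 201 CPM in blank and 254, 251 and 259 CPM in mtDNA (fold change 0.39, SE 0.054, edgeR adjusted p = 1.11e-05). Deptor, an inhibitor within the mTOR complexes, had 41.2, 36.1 and 28.9 CPM in blank and 20.7, 24.4 and 25.6 CPM in mtDNA (fold change -0.58, SE 0.13, edgeR adjusted p = 0.00228). Neither gene overlapped between groups, and Mtor itself was at 65.7 ± 2.87 and 71.8 ± 8.66 CPM without a call.

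Among 14 partners of the poly(A) tail and the cap, 1 was called higher (7.14%, against 11.9% of all tested genes) and 2 lower (14.3%, against 5.98%). Fmr1, which represses translation of its targets, rose from 42.3 ± 4.11 to 54.1 ± 2.28 CPM (fold change 0.36, edgeR adjusted p = 0.00675), a call lost without blank 3 (0.0507) and with library totals (0.0517). Pabpc4, a cytoplasmic poly(A)-binding protein, fell from 58.2 ± 1.84 to 40.2 ± 4.77 CPM (fold change -0.53, SE 0.091, edgeR adjusted p = 0.000188). Its abundant relative Pabpc1, a partner of eIF4G, was at 1022 ± 51.6 and 966 ± 18.8 CPM and was not called (edgeR adjusted p = 0.268). Paip2b, an inhibitor of poly(A)-binding protein, fell from 12.1 ± 0.560 to 7.97 ± 1.78 CPM (fold change -0.61, edgeR adjusted p = 0.026), a call lost with DESeq2 (0.143) and without blank 2 (0.0612), blank 3 (0.0841) or mtDNA 3 (0.159).

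Of 9 genes of termination, recycling and rescue, edgeR called 3 lower (33.3%, against 5.98% of all tested genes) and 0 higher. DESeq2, limma-voom and an unadjusted p under 0.05 also gave 0 higher, and DESeq2 called 1 lower, Abce1. Abce1, which splits ribosomes after termination, had 105, 107 and 103 CPM in blank and 83.8, 86.7 and 88.5 CPM in mtDNA (fold change -0.28, SE 0.064, edgeR adjusted p = 0.00307). Gspt1, the release factor eRF3, fell from 128 ± 4.74 to 109 ± 1.198 CPM (fold change -0.23, edgeR adjusted p = 0.0095), a call lost with DESeq2 (0.0586). Znf598, a sensor of collided ribosomes, fell from 63.4 ± 2.08 to 51.1 ± 6.93 CPM (fold change -0.32, edgeR adjusted p = 0.016), a call lost with DESeq2 (0.0791), with the GC correction (0.0556) and without blank 2 (0.0594) or mtDNA 3 (0.126), where its fold change was -0.21.

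Cytosolic ribosomal proteins, the other large part of the translation machinery, had 76 of 80 genes tested. EdgeR called 0 in either direction, DESeq2 also called 0, limma-voom called 1 lower, and at an unadjusted edgeR p under 0.05 there were 8 lower and 0 higher. Their median fold change was -0.04, the same as that of the factors to 2 decimals. Of the 76, 65 (85.5%) lay below 0, against 69.5% of the factors and 52.0% of all tested genes. Their sums ran from 28000 to 30116 CPM in blank and from 27927 to 28644 CPM in mtDNA, so the groups overlapped.

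Some markers of the cell types that the isolated fraction could hold differed between the groups. Of 12 neutrophil genes, 1 (Ngp) was called higher (8.33%, against 11.9% of all tested genes) and 0 lower. The summed level of the 12 was 8310 to 8757 CPM in blank and 8711 to 9374 CPM in mtDNA. Ly6g, which defines polymorphonuclear MDSCs, stood at only 4.87 ± 0.954 and 5.81 ± 1.14 CPM, whereas S100a8 stood at 1698 ± 65.3 and 1768 ± 123 CPM. Of 7 monocyte and macrophage genes, 3 (Ly6c2, Csf1r and Ccr2) were called higher (42.9%, against 11.9% of all tested genes). The 7 summed to 3054 to 3119 CPM in blank and 3685 to 3808 CPM in mtDNA. Monocyte transcripts were thus plentiful in cells labelled polymorphonuclear. The rise of this sum was uneven: Ly6c2 went from a mean of 538 CPM in blank to 968 CPM in mtDNA (fold change 0.85). Csf1r and Ccr2 had fold changes of only 0.12 and 0.16. Adgre1, Cx3cr1, Mrc1 and C1qa were not called, with fold changes from -0.08 (Cx3cr1) to 0.12 (C1qa). Whether the share of monocytes differed was not tested. Dendritic genes summed to 711 to 728 and 748 to 757 CPM, with Xcr1 at 2 reads in all, and those of basophils, mast cells and eosinophils to 151 to 171 and 177 to 195 CPM, with Mcpt8 called higher. Lymphocyte genes summed to 10.6 to 11.7 and 8.94 to 16.7 CPM with Ncr1 at 0, erythroid genes to 0.706 to 1.202 and 0.511 to 1.91 CPM, and stromal genes to 36.1 to 43.1 and 38.1 to 40.2 CPM. DESeq2 kept the calls of Ngp and Ly6c2 and lost those of Csf1r (adjusted p = 0.0608), Ccr2 (0.112), whose groups overlapped, and Mcpt8 (0.0628). The part of cell makeup in the falls of the translation factors was not tested.

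The calls of the factors depended on the libraries. Eif4b and Eef1g kept their call in all 6 omissions of a single library, and Eif4g1 in 5 of 6. Against a fold of 1.2 in place of 0, edgeR called 0 of the 59 factors in either direction, where 590 of all tested genes were higher and 55 lower.

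**Figure D5:**
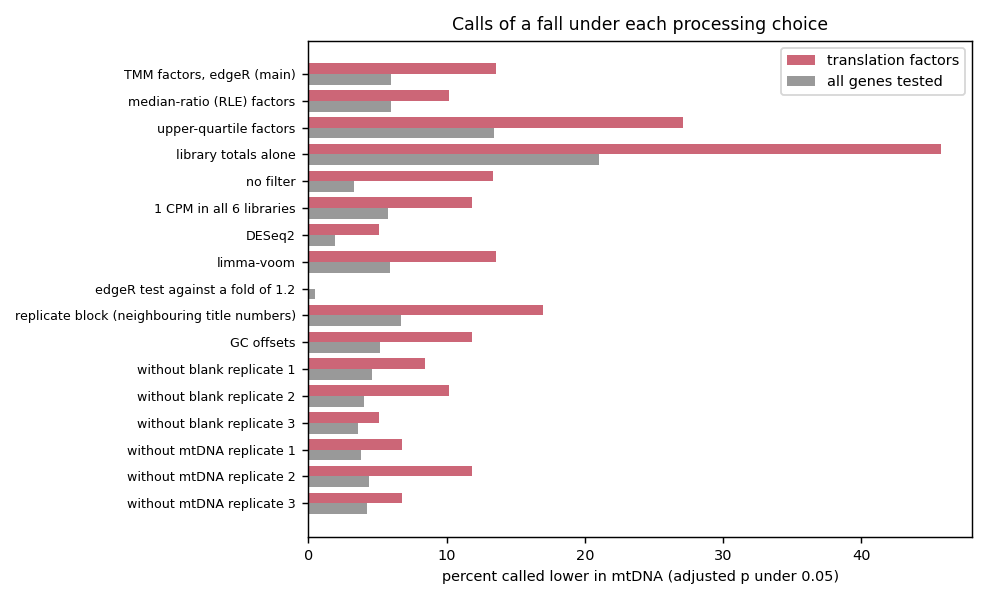
Percent of the translation factors (red) and of all tested genes (grey) called lower in mtDNA at an adjusted p under 0.05 under each processing choice, with bars from 0. The share of factors called lower runs from 0 of 59 in the test against a fold of 1.2 to 27 of 59 on library totals.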

How the data were processed

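Directional poly(A) libraries were read single-end at 75 bases, per the labels' protocols. The deposited table holds raw read counts per gene, 1 column per library, with no normalization by the authors. FastQC, STAR 2.7.10a, DESeq2 and GRCm39 are named in the submitters' processing notes. The annotation release and strand setting were not given in the sources used here. Column names carry STAR's per-gene output, per the file headers. Reads with several best positions do not enter STAR's gene counts, so genes with close copies lose reads. The number of per-sample columns left unused was 0.

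GENCODE M21 (GRCm38) served for symbols (52083 IDs matched, 3276 did not), exon lengths, GC content and sharing of 75-base windows of the longest transcript. RefSeq promoters (GRCm38.p6) covered 27025 genes.

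All 11190 genes that passed edgeR's default filter were fitted at once (edgeR 4.0.16, R 4.3.3, TMM factors 0.947 to 1.05, quasi-likelihood, two-sided, Benjamini-Hochberg over all of them, threshold 0.05; biological coefficient of variation 4.54%). The floor of 3 reads covers counting error only. Libraries of a group differed beyond sampling noise (1.54 to 2.28 in units of chi-square over its degrees of freedom). The procedure was first tested on simulated data. DESeq2 1.42.0, limma-voom (limma 3.58.1), other scalings and filters, a fold threshold, a block and library omissions were alternatives. Python 3.11.15 drew the figures.

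Members, lists and tests were chosen with earlier results of these data known. Named factors were those called, the smallest p of each role, and 18 fixed genes; from each list, up to 3 called in each direction with the smallest p. Pabpc1, Mtor, Atf4, the cell markers and factors named only with a level were chosen after their values were seen.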

Additional observations from a re-analysis of the deposited data

How the results depend on the processing

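The number of translation factors called lower was 8 in the reported fit. It was 16 with upper-quartile factors, 27 with library totals, 3 with DESeq2 and 0 in the edgeR test against a fold of 1.2, and it ranged from 3 (without blank 3) to 7 (without mtDNA 2) when a single library was left out. It was 6 with median-ratio factors, 8 without a filter, 7 with a filter of 1 CPM in all libraries, 8 with limma-voom, 7 with GC offsets and 8 among factors with at least 100 reads. None was called higher under these settings. The median fold change of the factors was -0.12 with upper-quartile factors (-0.09 over all genes) and -0.16 with library totals (-0.13 over all genes), and it ranged from -0.074 (without blank 1) to -0.037 (without mtDNA 3) over the omissions. Over all genes, DESeq2 called 217 lower in place of 669, and the omissions left 410 to 522. The difference (mtDNA minus blank) of the log2 ratio of Eif1 to Eif1b was -0.05. It ranged from -0.158 to 0.049 over the omissions, with its sign turned without blank 1. That of Eif5a to Eif5a2 was -0.28 and ranged from -0.62 to 0.021, turned without mtDNA 2. Adding 0.5 reads to both genes turned the sign of no such difference.

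Title numbers of neighbouring blank and mtDNA libraries may mark shared handling, but the labels do not say so. Deviations of such libraries from their group means correlated at 0.040 to 0.045, and those of the other pairs at -0.049 to 0.006. All of these correlations are small, and shared handling is not part of the stated design. With the number as a replicate block, 10 factors were called lower and 0 higher, and the median fold change was -0.04. Depth limits calls for factors with few reads, such as Eif5a2 and Eef1a2. The causes of these changes were not tested.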
